A study of Mus musculus with 24 samples.

Results

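The complement system is a cascade of serum and tissue proteins that tags cells and debris for removal, and its components and regulators were followed here as 8 genes among the 31053 gene identifiers counted in isolated mouse retinal pigment epithelium (RPE), the pigmented layer behind the retina. The 8 genes were taken by name: C1qa, C1qb and C1qc encode the chains of C1q, C4b and C3 encode the components C4 and C3, Cfb encodes factor B, and Cd59a and Serping1 encode the inhibitors CD59 and C1 inhibitor. All 8 symbols matched a single Ensembl identifier in the count tables. Of the 24 libraries, 12 were labelled as mutants, which carried Dct-Cre with the floxed Ift20 gene, and 12 as controls, which were Cre positive. The labels do not say how many floxed copies an animal carried or which exons were floxed. Both genotypes were sampled on postnatal days 11 (P11) and 29 (P29) and at 3 months of age (3M), giving 6 groups of 4 libraries. The driver, Dct-Cre, is not exclusive to the RPE, since Dct marks pigment cells in general, and both genotypes carried it, so a difference between them does not include an effect that the Cre driver has in both. The strain was given as mixed, sex was not collected, and no treatment was given. Libraries were labelled as biological replicates without stating whether each held RNA of 1 animal or a pool, so p-values here reflect the spread among libraries alone, and that spread may be technical.

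C1q binds antibody, dying cells or other surfaces and starts the classical pathway, in which C4 and then C3 are cleaved and deposited. Factor B drives the alternative pathway, which amplifies C3 deposition. C1 inhibitor blocks the proteases bound to C1q, and CD59 blocks the membrane attack complex at the end of the cascade. In the retina C1q is known as a product of microglia and macrophages, and complement overactivity beneath the RPE is associated with age-related macular degeneration.

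The kit makes about 1 sequence tag per transcript near its 3' end, so CPM, which scale each library's tags to a common total, can be compared between genes without a correction for length. The libraries held between 1513440 and 2889946 gene counts, and 3 counts, used here as the floor of detection, corresponded to 1.04 to 1.98 CPM. This floor covers counting error only. RPE markers led by Ttr, Rpe65 and Rgr summed to between 20948 and 71856 CPM in every library, and all 14 had counts in every group. Markers of other cells were present too: all 12 rod and all 10 stromal markers had a count in at least 1 library of every group, and so did all 20 macrophage and microglia markers except P2ry12, which was at 0 in 3M controls. The 10 lens markers, mostly crystallins, summed to 905.5 to 1012 CPM in P29 mutants, against 35.3 to 48.4 CPM in P29 controls. The 6 erythrocyte (red blood cell) markers summed to 28811 to 33224 CPM in P11 mutants, against 26840 to 28915 CPM in P11 controls. By P29 they summed to 3746 to 4024 CPM in mutants, against 2561 to 3191 CPM in controls. The 6 myelin markers summed to 41.6 to 64.7 CPM in P11 mutants, against 345 to 471 CPM in P11 controls. The part of these differences in the complement values was not tested. In such mixed samples fewer cells of a type and less RNA per cell cannot be told apart. Ift20, the targeted gene, gave 76.3 to 93.7 CPM in P11 mutants, against 60.4 to 149 CPM in P11 controls, 57.7 to 88.5 CPM in P29 mutants, against 84.6 to 124 CPM in P29 controls, and 97.1 to 116 CPM in 3M mutants, against 118 to 159.5 CPM in 3M controls. Because tags come from the transcript's end, which the deletion may spare, Ift20 does not check the labels.

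The promoters of C1qb and Cd59a are shown because they stand for the recognition genes that fell with age and for the terminal inhibitor that rose with age. In the main edgeR fit to all 24 libraries the C1qb fall was called in controls alone. RefSeq promoter sequences of the GRCm38.p6 build matched 4 of the 8 genes, C1qb, C1qc, C3 and Cd59a, and had no match for C1qa, C4b, Cfb and Serping1. The sequences hold the 250 bases before the annotated start, 5' to 3' on the gene's strand, from chr4:136886201-136886450 on the minus strand and chr2:104095551-104095800 on the plus strand. Capitals mark matches, on either strand, to GAGGAA, a purine box of the kind bound by the myeloid factor PU.1, or to GAAA repeated after any 2 bases (GAAA, N, N, GAAA), the core of an interferon-stimulated response element.
C1qb: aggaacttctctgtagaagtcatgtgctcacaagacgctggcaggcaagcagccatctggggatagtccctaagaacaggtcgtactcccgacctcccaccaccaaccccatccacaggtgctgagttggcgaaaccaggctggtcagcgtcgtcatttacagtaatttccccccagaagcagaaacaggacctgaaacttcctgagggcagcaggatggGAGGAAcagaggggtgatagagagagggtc
Cd59a: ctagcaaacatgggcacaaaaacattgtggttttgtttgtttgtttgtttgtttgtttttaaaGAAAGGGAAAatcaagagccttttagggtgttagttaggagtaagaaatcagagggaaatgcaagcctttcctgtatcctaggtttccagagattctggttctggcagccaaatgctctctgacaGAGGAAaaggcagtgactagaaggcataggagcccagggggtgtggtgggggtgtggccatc
C1qb held GAGGAA 30 to 25 bases before its start and Cd59a held it 62 to 57 bases before its start. C1qc held the reverse complement, TTCCTC, 193 to 188 bases before its RefSeq start. GENCODE vM21 places the C1qc start farther upstream, within this window but after the match, so the distance holds for the RefSeq start alone. For that reason the C1qc sequence is not printed. Cd59a also held GAAAGGGAAA, the interferon-type match, 187 to 178 bases before its start, and the C3 window held neither motif. Among 32851 promoters of the same length, 23.3% held GAGGAA and 2.98% held the interferon-type repeat on either strand. The 2 motifs do not overlap in the windows shown. A match describes letters and does not show binding.

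The 8 genes differed widely in level. Serping1 was the most abundant, with a median of 56.2 CPM over the 24 libraries and a range of 39.9 to 143 CPM, followed by Cd59a with a median of 44.6 CPM and a range of 13.6 to 84.3 CPM. These ranges overlap, and at 3M the order was the reverse in mutants, with Cd59a at 67.9 to 84.3 CPM and Serping1 at 47.2 to 56.4 CPM. The C1q chains lay together, with medians of 22.1 CPM for C1qc, 21 CPM for C1qa and 18.2 CPM for C1qb, and did not separate beyond their spread. C4b had a median of 5.02 CPM. C3 and Cfb, the core of the alternative pathway, were barely counted: C3 had 98 tags and Cfb 48 tags over all 24 libraries, with 6 and 7 libraries at 0. Both stayed below the low-count filter, so 6 of the 8 genes were tested among 12303.

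**Figure D1:**
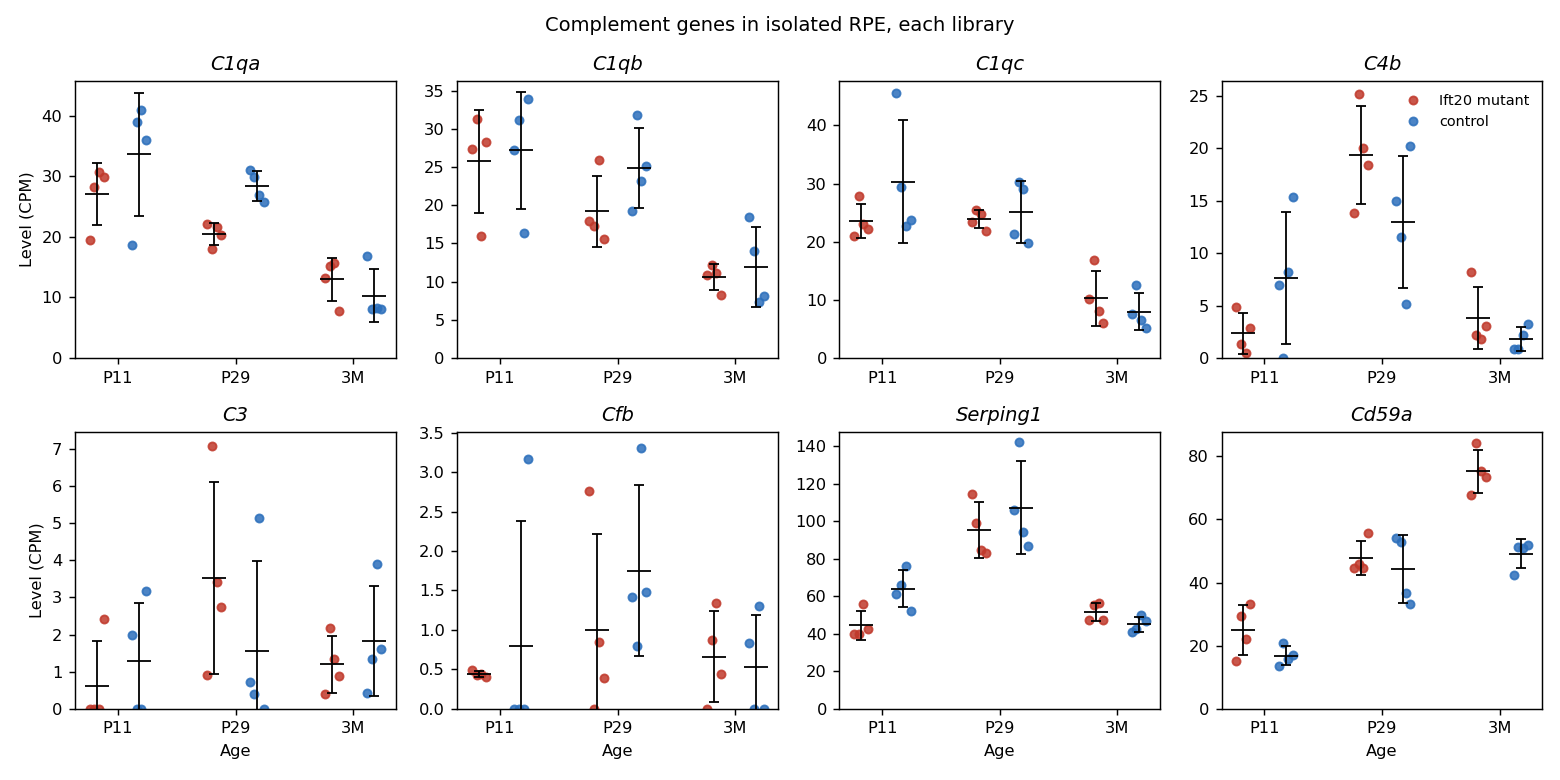
Level of each of the 8 complement genes in CPM (vertical axis, linear, a separate scale per panel) by age, with a point for each library, mutants left of controls, and bars for the mean and SD of 4 libraries, cut at 0. C1q chains, C4b and Serping1 sit lower at 3M than at P29, Cd59a sits higher in 3M mutants (67.9 to 84.3 CPM) than in 3M controls (42.4 to 52.0 CPM), and C3 and Cfb stay near 0.

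C1q genes fell between P29 and 3M. In GRCm38 the 3 genes lie side by side on the minus strand of chromosome 4, C1qb (ENSMUSG00000036905) from 136880129 to 136886187, C1qc (ENSMUSG00000036896) from 136889804 to 136893065 and C1qa (ENSMUSG00000036887) from 136895917 to 136898803. In 3M controls all 3 were lower than in P29 controls, and in mutants C1qc alone passed the test. No C1q gene differed between genotypes at any age.

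For C1qa, P11 mutants had 19.6, 28.2, 30.7 and 29.9 CPM, against 18.6, 38.9, 40.9 and 36.0 CPM in P11 controls. P29 mutants had 22.1, 18.1, 21.7 and 20.3 CPM, against 31, 29.8, 26.8 and 25.7 CPM in P29 controls. 3M mutants had 13.3, 15.2, 15.7 and 7.84 CPM, against 16.8, 8.11, 8.26 and 8.06 CPM in 3M controls. The genotypes overlapped at P11 and 3M, while at P29 all 4 mutants lay below all 4 controls. That P29 difference of -0.47 on the log2 scale (SE 0.29) had an edgeR adjusted p = 0.602, and 7.75% of all tested genes had groups that did not overlap at this age. In controls C1qa fell to 0.365 of its P29 level at 3M (log2 fold change -1.45, SE 0.30, adjusted p = 0.000154), with no overlap between the ages, as for 15% of all tested genes. In mutants the same comparison gave -0.66 (SE 0.30, adjusted p = 0.154), and there too every 3M library lay below every P29 library, as the ages did not overlap for 18% of all tested genes. The test of the difference between these age effects, 0.80 (SE 0.43), had an adjusted p = 0.584.

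For C1qb, P11 mutants had 27.4, 31.2, 16 and 28.3 CPM, against 27.3, 31.1, 16.4 and 33.8 CPM in P11 controls. P29 mutants had 17.9, 17.3, 26 and 15.6 CPM, against 19.2, 31.8, 23.2 and 25.2 CPM in P29 controls. 3M mutants had 10.9, 12.2, 11.2 and 8.28 CPM, against 18.5, 14, 7.39 and 8.06 CPM in 3M controls. The genotypes overlapped at all 3 ages. In controls C1qb fell at 3M against P29 by 1.05 on the log2 scale (SE 0.31, edgeR adjusted p = 0.0144). The call was lost without P29 control replicate 2 (-0.91, adjusted p = 0.0759), 3M control replicate 3 (-0.88, adjusted p = 0.0810) or 3M control replicate 4 (-0.90, adjusted p = 0.0804). In mutants the value was -0.85 (SE 0.32, adjusted p = 0.0691), which passed in a fit to only the groups compared (-0.87, adjusted p = 0.0422) and by DESeq2 (-0.86, adjusted p = 0.0452). The difference between the age effects was 0.20 (SE 0.45, adjusted p = 0.959).

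For C1qc, P11 mutants had 21, 27.8, 23.1 and 22.2 CPM, against 45.6, 29.3, 22.7 and 23.8 CPM in P11 controls. P29 mutants had 23.4, 25.5, 24.7 and 21.9 CPM, against 21.4, 30.2, 29.0 and 19.8 CPM in P29 controls. 3M mutants had 10.1, 16.9, 8.06 and 6.10 CPM, against 7.56, 12.6, 6.52 and 5.24 CPM in 3M controls. The genotypes overlapped at all 3 ages, and in both genotypes every 3M library lay below every P29 library, where the ages did not overlap for 18% of all tested genes in mutants and 15% in controls. Against P29, C1qc fell by 1.21 on the log2 scale in 3M mutants (SE 0.32, edgeR adjusted p = 0.00377) and fell by 1.66 in 3M controls (SE 0.32, adjusted p = 5.16e-05).

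Across the 24 libraries the chains moved together, with Pearson's r of 0.789 between C1qa and C1qb, 0.774 between C1qa and C1qc and 0.825 between C1qb and C1qc on log2 CPM. These values are a description over libraries that share age and genotype groups. By the same measure over 10480 genes, the genes most like C1qc were Fabp12 (r = 0.899), Aqr (0.891) and Nrl (0.880), those most like C1qa were Adamts2 (0.869), Sh3gl2 (0.868) and Nxnl2 (0.865), and those most like C1qb were Cnot6l (0.888), Glg1 (0.845) and Pcsk1n (0.826). Of these 9 genes Nrl, a transcription factor of rods, is in the rod list, and none is in the macrophage list of 20. Only tested genes averaging 5 CPM or more were compared, so markers below that level could not appear. What this likeness reflects was not tested.

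Markers of macrophages and microglia, the known source of C1q, were measured beside these results. In controls at 3M against P29, where 8.5% of all tested genes fell, 7 of 19 tested markers fell and 1 rose. Their median log2 fold change was -1.08, against -0.03 over all genes. In mutants 2 markers fell, Pf4 (platelet factor 4) and Cx3cr1 (the fractalkine receptor), where 7.27% of all tested genes fell. Another 2 rose, Csf1r (the receptor of the growth factor CSF1) and Lyz2 (lysozyme), where 5.44% of all tested genes rose. The median of the markers was -0.26, against -0.01 over all genes. The summed level did not fall: it was 425 to 453 CPM in P11 mutants against 499 to 580 CPM in P11 controls, 497 to 536 CPM in P29 mutants against 610 to 645 CPM in P29 controls, and 731 to 799 CPM in 3M mutants against 645 to 730 CPM in 3M controls. Csf1r, with a mean of 348 CPM over all libraries, is the most abundant of the list and rose with age, by 0.85 in mutants (SE 0.08, edgeR adjusted p = 1.29e-14) and 0.42 in controls (SE 0.08, adjusted p = 5.95e-05) on the log2 scale at 3M against P29. On the other strand, a gene overlaps the 3' end of Csf1r (Hmgxb3), Cx3cr1 (Wdr48) and P2ry12 (Med12l), and whether counting used strand is not given, so the counts of these 3 markers are uncertain.

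Without Csf1r and Lyz2, a choice made after their values were seen, the list summed to 227 to 273 CPM in P11 mutants against 292 to 364 CPM in P11 controls, 168 to 180 CPM in P29 mutants against 212 to 227 CPM in P29 controls, and 137 to 163 CPM in 3M mutants against 111 to 120 CPM in 3M controls. Per 100 CPM of the full list, the summed C1q transcripts stood at 15.7 to 19.2 CPM in P11 mutants against 15.9 to 19.1 CPM in P11 controls, at 11.1 to 13.8 CPM in P29 mutants against 11.1 to 14.2 CPM in P29 controls, and at 2.78 to 5.72 CPM in 3M mutants against 3.24 to 6.52 CPM in 3M controls. In both genotypes every 3M library lay below every P29 library on this ratio. Per 100 CPM of the sum without Csf1r and Lyz2, the C1q transcripts stood at 25.5 to 34.8 in P11 mutants against 25.7 to 33.6 in P11 controls, at 32.3 to 40.3 in P29 mutants against 31.1 to 41.6 in P29 controls, and at 14.2 to 27.2 in 3M mutants against 18.3 to 36.2 in 3M controls. On this second ratio the P29 and 3M libraries did not overlap in mutants and overlapped in controls. The part of these markers in the C1q values was not tested. Rod markers fell beside the C1q genes: all 12 were called lower at 3M against P29 in each genotype, and their sum was 15555 to 16728 CPM in P29 mutants against 10833 to 11515 CPM in P29 controls, and 7303 to 7714 CPM in 3M mutants against 4066 to 4467 CPM in 3M controls. Of all tested genes, 7.27% were called lower at 3M against P29 in mutants and 8.5% in controls. The part of rod material in the C1q values was not tested either. RPE markers moved the other way, summing to 44290 to 46683 CPM in P29 mutants against 51196 to 52244 CPM in P29 controls, and to 68297 to 71856 CPM in 3M mutants against 68442 to 71474 CPM in 3M controls.

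**Figure D2:**
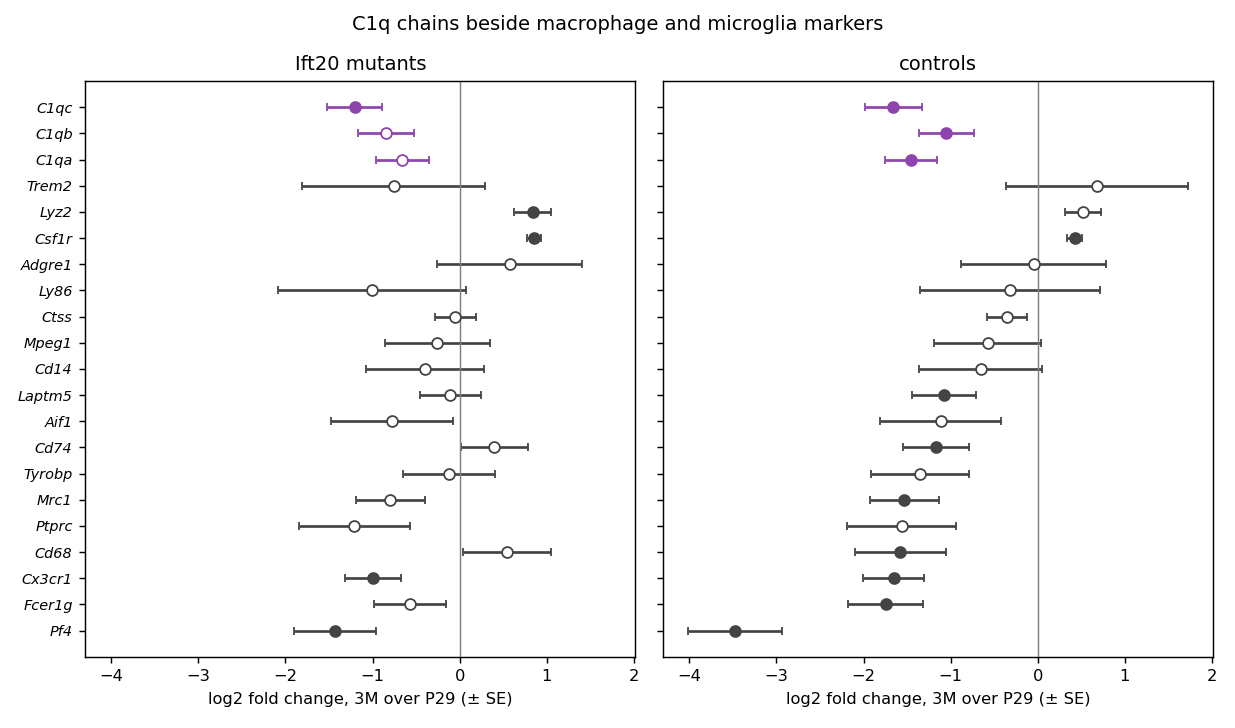
Log2 fold change at 3M against P29 (horizontal axis) of 18 of the 19 tested macrophage and microglia markers, and of the C1q chains, in mutants and in controls, with bars for the SE on each side and filled points for an adjusted p under 0.05. Markers are sorted by their value in controls, where 7 fell and Csf1r rose, and in mutants 2 fell and 2 rose.

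C4b, the classical-pathway component that C1q-bound proteases cleave, had its highest means at P29 in both genotypes. In GRCm38 C4b (ENSMUSG00000073418) lies on the minus strand of chromosome 17 from 34728380 to 34743882. Its near-identical copy C4a was not analysed here, and how shared reads were assigned is not given, so the C4b counts are uncertain. P11 mutants had 4.89, 1.30, 0.444 and 2.83 CPM, against 6.98, 0, 8.19 and 15.3 CPM in P11 controls. P29 mutants had 13.8, 25.1, 20 and 18.4 CPM, against 14.9, 11.5, 5.15 and 20.2 CPM in P29 controls. 3M mutants had 8.19, 2.17, 1.79 and 3.05 CPM, against 0.839, 0.901, 2.17 and 3.23 CPM in 3M controls. The genotypes overlapped at each age, while within a genotype the 3M libraries lay below all P29 libraries, as the ages did not overlap for 18% of all tested genes in mutants and 15% in controls.

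C4b rose 8.10-fold at P29 against P11 in mutants (log2 fold change 3.02, SE 0.60, edgeR adjusted p = 2.87e-05), and the value in controls was 0.74 (SE 0.54, adjusted p = 0.319). By 3M it had fallen by 2.31 against P29 in mutants (SE 0.57, adjusted p = 0.00187) and by 2.80 in controls (SE 0.62, adjusted p = 0.000491) on the log2 scale. C4b counts were 10, 3, 1 and 7 in P11 mutants, 21, 5, 4 and 7 in 3M mutants and 2, 2, 5 and 8 in 3M controls. Many of these lie near the floor, so the size of folds that use these groups is uncertain. Between genotypes the log2 fold change was -1.69 at P11 (SE 0.62, adjusted p = 0.0878), 0.58 at P29 (SE 0.52, adjusted p = 0.774) and 1.08 at 3M (SE 0.66, adjusted p = 0.606). The genotype effect at 3M minus that at P11 was 2.77 (SE 0.91, adjusted p = 0.0867) and at P29 minus P11 it was 2.28 (SE 0.81, adjusted p = 0.129). Without P11 control replicate 2, the library at 0, C4b passed at P11 (-2.09, adjusted p = 0.0170) and for the differences 3M minus P11 (3.16, adjusted p = 0.0203) and P29 minus P11 (2.67, adjusted p = 0.0303). Without P11 mutant replicate 1 it passed at P11 (-2.27, adjusted p = 0.0392) and for 3M minus P11 (3.35, adjusted p = 0.0408).

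Serping1, whose product C1 inhibitor stops the proteases that cleave C4, also had its highest means at P29, at a higher level. In GRCm38 Serping1 (ENSMUSG00000023224) lies on the minus strand of chromosome 2 from 84765387 to 84775444. P11 mutants had 40.1, 39.9, 56.0 and 42.4 CPM, against 61.5, 65.9, 76.2 and 52.4 CPM in P11 controls. P29 mutants had 115, 99.0, 84.7 and 83.2 CPM, against 106, 143, 94.1 and 86.9 CPM in P29 controls. 3M mutants had 47.2, 55.2, 56.4 and 47.5 CPM, against 41.1, 42.4, 50.0 and 46.8 CPM in 3M controls. At P11 mutant replicate 3 alone reached into the control range, and in both genotypes every P29 library lay above every P11 and 3M library. Between P29 and P11 the ages did not overlap for 31.3% of all tested genes in mutants and 27.6% in controls. Between 3M and P29 these shares were 18% in mutants and 15% in controls.

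At P29 against P11 Serping1 rose 2.13-fold in mutants (log2 fold change 1.09, SE 0.17, edgeR adjusted p = 6.22e-08) and 1.68-fold in controls (0.75, SE 0.16, adjusted p = 0.000121). Against P29, the 3M level fell by 0.89 in mutants (SE 0.17, adjusted p = 2.12e-05) and by 1.25 in controls (SE 0.17, adjusted p = 2.51e-09) on the log2 scale. Between genotypes the log2 fold change was -0.51 at P11 (SE 0.17, adjusted p = 0.0535), -0.17 at P29 (SE 0.16, adjusted p = 0.787) and 0.19 at 3M (SE 0.17, adjusted p = 0.801), and the effect at 3M minus P11 was 0.71 (SE 0.24, adjusted p = 0.113). The P11 value passed by DESeq2 (-0.52, adjusted p = 0.0406), without P11 control replicate 4 (-0.60, adjusted p = 0.0240) and without P11 mutant replicate 3 (-0.64, adjusted p = 0.0232).

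Dcn, which encodes the matrix proteoglycan decorin of connective tissue, and Nr4a2, a nuclear receptor, were among the 3 genes most like both Serping1 and C4b over the 24 libraries. For Serping1 the Pearson's r on log2 CPM was 0.879 with Dcn, 0.876 with Nr4a2 and 0.871 with Gsn (gelsolin, an actin-severing protein), and for C4b it was 0.807 with Thbd (thrombomodulin), 0.748 with Nr4a2 and 0.737 with Dcn. Dcn itself was lower in mutants at P11 (log2 fold change -0.47, SE 0.08, edgeR adjusted p = 2.97e-05) and higher in mutants at 3M (0.50, SE 0.08, adjusted p = 5.82e-06). Against P29, it fell at 3M by 0.67 in mutants (SE 0.08, adjusted p = 8.67e-11) and by 1.31 in controls (SE 0.08, adjusted p = 1.17e-25). The 10 stromal markers, of which Dcn is 1, summed to 2571 to 2812 CPM in P11 mutants against 3247 to 3506 CPM in P11 controls, to 1936 to 2065 CPM in P29 mutants against 2066 to 2194 CPM in P29 controls, and to 923 to 1113 CPM in 3M mutants against 662 to 1297 CPM in 3M controls, where replicate 3 was the highest. Their sum, led by Col1a2, was highest at P11, but single markers differed. At P29 against P11, 3 of the 10 were called higher and 3 lower in mutants, and 1 higher and 5 lower in controls. Of all 12303 tested genes, 2022 were called higher and 1873 lower in mutants, and 2026 higher and 1917 lower in controls. Between P29 and 3M, 5 of the 10 fell in mutants and 6 fell in controls, where 7.27% and 8.5% of all tested genes fell. The part of stromal cells in the Serping1 and C4b values was not tested.

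Cd59a, which encodes the membrane inhibitor of the terminal attack complex, was the 1 of the 6 tested genes with no fall called between P29 and 3M in either genotype. In GRCm38 Cd59a (ENSMUSG00000032679) occupies 104095801 to 104115354 on chromosome 2, plus strand. P11 mutants had 15.2, 29.5, 22.2 and 33.1 CPM, against 13.6, 21, 15.7 and 16.9 CPM in P11 controls. P29 mutants had 44.6, 45.9, 44.7 and 55.9 CPM, against 54.1, 52.8, 36.8 and 33.1 CPM in P29 controls. 3M mutants had 67.9, 84.3, 75.3 and 73.6 CPM, against 42.4, 51.4, 50.9 and 52.0 CPM in 3M controls. The genotypes overlapped at P11 and P29, and at 3M all 4 mutants lay above all 4 controls, as the groups of 8.07% of tested genes did not overlap at that age.

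In mutants Cd59a rose at both steps, by 0.92 on the log2 scale at P29 against P11 (SE 0.21, edgeR adjusted p = 0.000285) and by 0.65 at 3M against P29 (SE 0.20, adjusted p = 0.0170). In controls it rose 2.66-fold at P29 against P11 (1.41, SE 0.23, adjusted p = 2.07e-07), and the value at 3M against P29 was 0.15 (SE 0.20, adjusted p = 0.754). The genotype log2 fold change was 0.60 at P11 (SE 0.24, adjusted p = 0.122), 0.11 at P29 (SE 0.20, adjusted p = 0.919) and 0.61 at 3M (SE 0.20, 95% interval 0.22 to 1.01, adjusted p = 0.0870). The effect at 3M minus that at P29 was 0.51 (SE 0.29, adjusted p = 0.626). A fit to only the 3M libraries called the 3M difference (0.59, adjusted p = 0.0120), and the P11 difference was called without P11 mutant replicate 1 (0.77, adjusted p = 0.0403). The rise in mutants at 3M was lost without P29 mutant replicate 1 (0.62, adjusted p = 0.0525), P29 mutant replicate 3 (0.62, adjusted p = 0.0529) or 3M mutant replicate 2 (0.59, adjusted p = 0.0715). The genes most like Cd59a over the 24 libraries were Gstt3 (r = 0.935), a glutathione transferase, Atp5k (0.932), a subunit of the mitochondrial ATP synthase, and Tuba4a (0.929), an alpha-tubulin.

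C3, the central component on which all complement pathways converge, gave few tags. In GRCm38 C3 (ENSMUSG00000024164) lies on the minus strand of chromosome 17 from 57203970 to 57228136. Its counts were 0, 0, 0 and 6 in P11 mutants against 6, 0, 0 and 6 in P11 controls, 2, 18, 8 and 7 in P29 mutants against 2, 1, 14 and 0 in P29 controls, and 1, 5, 3 and 2 in 3M mutants against 1, 3, 9 and 4 in 3M controls. The genotypes overlapped at each age, and 12 of the 24 libraries held under 3 counts. Cfb, which encodes factor B (ENSMUSG00000090231, chromosome 17 from 34856374 to 34862518, minus strand), overlaps Gm20547 and Mir6972 on the same strand and is uncertain for that reason. Its counts were 1, 1, 1 and 1 in P11 mutants against 0, 0, 0 and 6 in P11 controls, 6, 0, 2 and 1 in P29 mutants against 4, 2, 9 and 3 in P29 controls, and 0, 2, 3 and 1 in 3M mutants against 2, 0, 3 and 0 in 3M controls. In 17 libraries Cfb held under 3 counts. A genotype or age difference in C3 or Cfb was not detectable at this depth, and no fold is given.

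Counted together, edgeR called 0 of the 6 tested genes for genotype at P11, where 6.93% of all tested genes were called, 0 at P29, where 2.84% were, and 0 at 3M, where 2.61% were. At an unadjusted p under 0.05 there were 3 at P11 (C4b, Cd59a and Serping1), 0 at P29 and 1 at 3M (Cd59a), and DESeq2 called 1 at P11 (Serping1), 0 at P29 and 0 at 3M. The median genotype log2 fold change of the 6 genes was -0.34 at P11, -0.12 at P29 and 0.35 at 3M, against medians of 0.00 at P11 and P29 and 0.03 at 3M over all genes. For the difference of the genotype effect, edgeR called 0 of the 6 at P29 minus P11, at 3M minus P29 and at 3M minus P11, where 2.63%, 0.853% and 2.53% of all tested genes were called. DESeq2 also called 0 in each, and the unadjusted p was under 0.05 for 1 (C4b), 0 and 2 (C4b and Serping1).

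Age gave more calls. At P29 against P11, 3 of the 6 genes were higher in mutants (C4b, Cd59a and Serping1) and 2 in controls (Cd59a and Serping1), where 16.4% of all tested genes were higher in mutants and 16.5% in controls. At 3M against P29, 3 were lower in mutants (C1qc, C4b and Serping1) and 5 in controls (the 3 C1q chains, C4b and Serping1), where 7.27% of all tested genes were lower in mutants and 8.5% in controls, and 1 was higher in mutants (Cd59a), where 5.44% were. The median of the 6 genes at 3M against P29 was -0.87 in mutants and -1.35 in controls, against -0.01 and -0.03 over all genes. At P29 against P11 it was 0.47 in mutants and 0.30 in controls, against -0.01 and -0.02 over all genes. The comparisons at successive ages share the P29 libraries, and those between genotypes share libraries with those between ages.

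**Figure D3:**
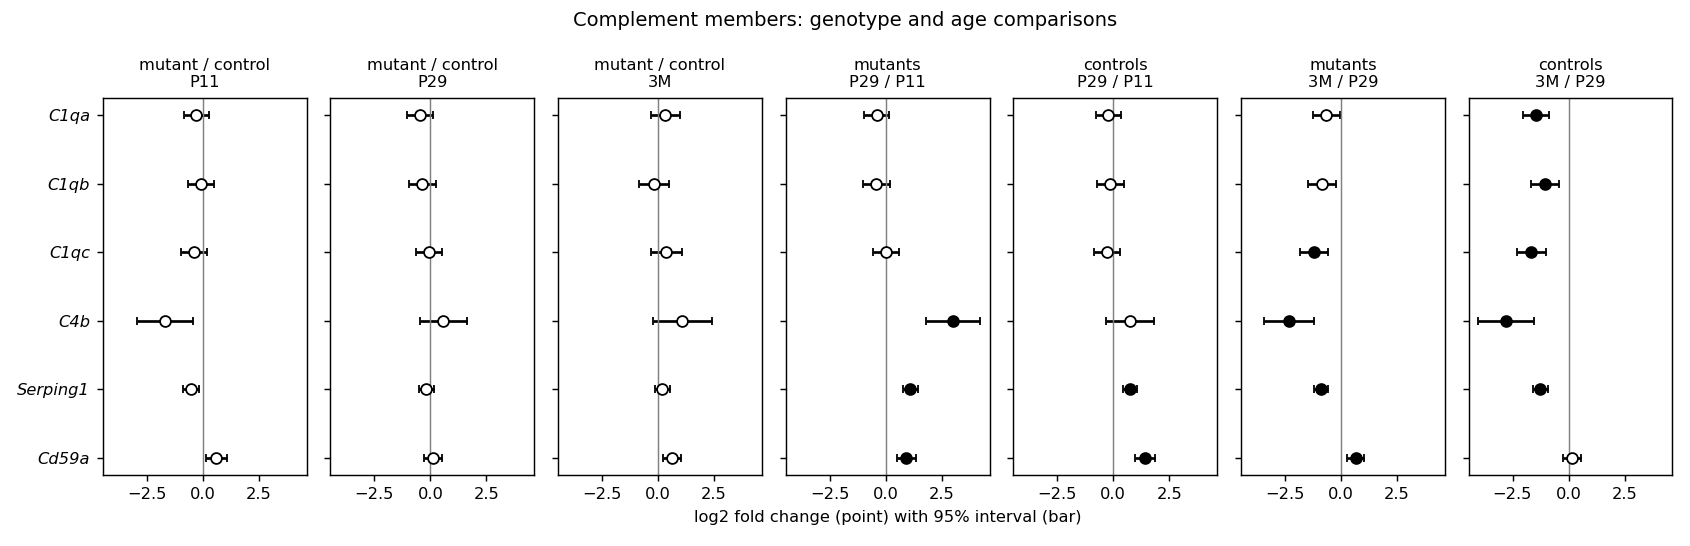
Log2 fold change of the 6 tested complement genes (points) with 95% intervals (bars) for mutant against control at each age and for later against earlier age in mutants and in controls, filled where the adjusted p was under 0.05. No genotype point is filled, and at 3M against P29 the filled points are C1qc, C4b and Serping1 in both genotypes, C1qa and C1qb in controls and Cd59a, upwards, in mutants.

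Other genes of the pathway came from a list of 52 names, of which 51 matched the tables and 18 were tested. Between 16 and 23 of the 51 were at 0 in all 4 libraries of a group, and Hc, C6, C8a and C9, which encode components of the membrane attack complex, were at 0 in each of the 6 groups. Among the 18 tested genes edgeR called 2 lower in mutants at P11, where 3.67% of all tested genes were, 1 higher at P29, where 1.63% were, and 1 higher at 3M, where 2.13% were. The median log2 fold change of the 18 was -0.18 at P11, -0.23 at P29 and 0.22 at 3M.

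Clu, which encodes clusterin, an inhibitor of the terminal complex and the most abundant gene of the list, averaged 2667 CPM ± 68.4 in P11 mutants and 3012 CPM ± 94.8 in P11 controls (SD, n = 4 each; log2 fold change -0.18, SE 0.04, edgeR adjusted p = 0.00505). Cd93, which encodes a receptor of endothelial and myeloid cells once described as a C1q receptor, averaged 21.3 CPM ± 4.5 in P11 mutants and 61.1 CPM ± 13.7 in P11 controls (-1.53, SE 0.35, adjusted p = 0.00193). For Clu and Cd93 all 4 mutants lay below all 4 controls, and at P11 the groups of 10.3% of all tested genes did not overlap, none of the 6 tested members among them. At P11 endothelial markers were lower beside Cd93: 7 of 12 were called lower in mutants, where 3.67% of all tested genes were. Their sum was 231 to 268 CPM in P11 mutants against 505 to 536 CPM in P11 controls. It was higher in mutants later, at 134 to 147 CPM against 81.5 to 114 CPM at P29, and 40.9 to 48.4 CPM against 18.5 to 37.8 CPM at 3M. Cd93 overlapped between genotypes at those ages. It stood at 5.47 to 18.8 CPM in P29 mutants against 9.97 to 13.3 CPM in P29 controls. At 3M it stood at 0 to 5.46 CPM in mutants against 0 to 4.62 CPM in controls. The part of endothelial cells in the Cd93 values was not tested.

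Vtn, which encodes vitronectin, an adhesive matrix protein that also blocks the terminal complex, was the complement-related gene called at both later ages. It averaged 168 CPM ± 14.9 in P29 mutants and 117 CPM ± 16.7 in P29 controls (log2 fold change 0.53, SE 0.14, edgeR adjusted p = 0.0117), and 88.8 CPM ± 9.92 in 3M mutants and 56.2 CPM ± 2.25 in 3M controls (0.66, SE 0.15, adjusted p = 0.00173). All 4 mutants lay above all 4 controls at both ages, where the groups of 7.75% of all tested genes at P29 and 8.07% at 3M did not overlap. The P29 call was lost without P29 control replicate 1 (0.46, adjusted p = 0.0889), P29 control replicate 3 (0.49, adjusted p = 0.0576) or P29 mutant replicate 4 (0.47, adjusted p = 0.0850). In GRCm38 Vtn lies on chromosome 11 from 78499091 to 78502324, near the targeted gene Ift20, which lies from 78536361 to 78541737, and on a mixed strain background linked alleles and the genotype cannot be told apart.

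With age, 5 of the 18 genes rose and 2 fell in mutants and 3 rose and 3 fell in controls at P29 against P11. Of all 12303 tested genes, 2022 rose and 1873 fell in mutants and 2026 rose and 1917 fell in controls at that step. At 3M against P29, 2 of the 18 rose and 3 fell in mutants, and 1 rose and 3 fell in controls. There 669 of all tested genes rose and 895 fell in mutants, and 429 rose and 1046 fell in controls. Clu rose 2.19-fold in mutants (edgeR adjusted p = 9.2e-42) and 2.09-fold in controls (adjusted p = 1.04e-39) at P29 against P11. C1ra, a protease that C1 inhibitor blocks, rose 4.08-fold in mutants (adjusted p = 0.0021) and 4.85-fold in controls (adjusted p = 0.000759). Its P11 levels were near the floor, so these folds are uncertain. C1ra stood at 1.21 to 3.91 CPM in P11 mutants and 0 to 4.66 CPM in P11 controls, where 2 libraries held under 3 counts. At P29 it stood at 10.2 to 15.2 CPM in mutants and 7.83 to 15.5 CPM in controls.

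**Figure D4:**
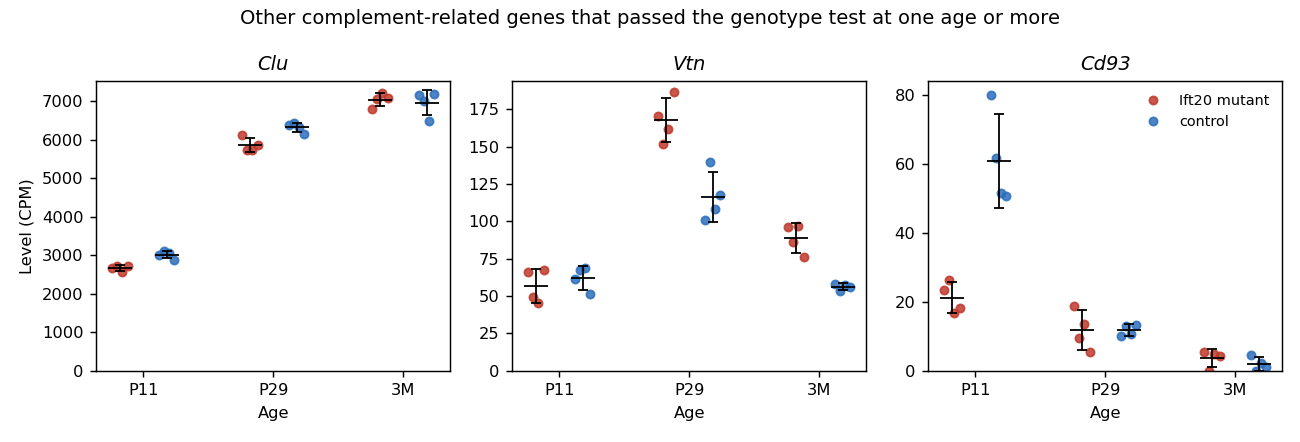
Level in CPM (vertical axis, linear, a separate scale per panel) of 3 other complement genes called for genotype, by age, with a point for each library, mutants left of controls, and bars for the mean and SD of 4 libraries. Clu and Cd93 lie lower in P11 mutants, and Vtn lies higher in P29 mutants (152 to 187 CPM against 101 to 139 CPM in controls) and in 3M mutants (75.8 to 96.8 CPM against 53.2 to 58.3 CPM in controls).

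Interferon-response genes, which often move with complement genes in inflamed tissue, were read as a comparison list. At P29 against P11, 9 of 16 tested genes rose in mutants and 9 in controls, where 16.4% and 16.5% of all tested genes rose. The list's median log2 fold changes were 1.60 in mutants and 1.55 in controls. At 3M against P29, 1 rose (B2m) and 1 fell (Irf1) in mutants with a median of -0.24, and 5 fell in controls with a median of -0.86. Of all tested genes, 5.44% rose and 7.27% fell in mutants at that step, and 8.5% fell in controls. Between genotypes B2m, the light chain of MHC class I, was lower in mutants at P11 (-0.46, SE 0.08, edgeR adjusted p = 5.85e-06) and P29 (-0.28, SE 0.07, adjusted p = 0.00987), and Ifit3, an interferon-induced antiviral gene, was higher in mutants at 3M (0.84, SE 0.22, adjusted p = 0.0134). B2m overlaps a gene on the other strand and is uncertain where counting ignored strand.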

How the data were processed

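RNA of isolated RPE cells was made into QuantSeq 3' mRNA libraries and sequenced as single 100-base reads, per the labels' protocols. The submitters' processing notes list STAR and mm10, while the counting tool, annotation and strand setting are not given in the sources that were used. The authors deposited raw read counts per Ensembl gene for each of 24 libraries. Entries that name no gene (18.6 to 27.5% of counted reads without a feature, 31 to 37.2% not unique and 0.192 to 0.322% ambiguous) stayed out of library sizes and tests. At P11 the genotypes did not overlap in reads without a feature, at 26.5 to 27.5% in mutants against 22.7 to 24.1% in controls. Nor did they in genes with a count, at 14599 to 14709 in P11 mutants against 13363 to 14057 in P11 controls. The part of these differences in the P11 genotype values was not tested. Symbols came from the GENCODE vM21 annotation and matched 30934 of 31053 identifiers.

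In R 4.3.3, edgeR 4.0.16 tested the counts by its robust quasi-likelihood F test, using TMM factors (0.937 to 1.05), the filterByExpr filter (12303 genes kept), all 24 libraries with 1 mean per group, and Benjamini-Hochberg adjustment over all tested genes at 0.05. CPM values use TMM-scaled library sizes. The standard error is the log2 fold change over the root of F. Depth limits precision to the floor of 3 counts. Likeness between genes is Pearson's r on log2 CPM with a prior count of 1, among genes averaging 5 CPM or more. The script was tested on simulated counts. Replicates differed by more than sampling noise in all 36 pairs within groups (chi-square per gene 2.98 to 7.15).

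Other settings tried were DESeq2 1.42.0, size factors by median of ratios, no filter, a filter of 5 CPM in 4 libraries, a fit to only the groups compared, the replicate number as a block, and leaving out each library. The genes and lists were chosen with earlier results of these data known. The text names all 8 genes, other complement genes called for genotype (and a few called for age), the 3 genes most like each tested member, and the leading markers of each list; C1ra, Hc, C6, C8a, C9, Pf4, Cx3cr1, P2ry12, Irf1 and Thbd in lists were singled out after their values were seen. Some genes of the pathway and the marker lists are not reported here by name. Lists are given by counts and medians, with no test of their own.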

Additional observations from a re-analysis of the deposited data

Results flagged for a closer look

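In 66 sets of 4 libraries (8 complement genes and 3 others called for genotype, in 6 groups) 7 had a highest or lowest library far from the other 3. Chance alone gives about 1 in 20 where values follow a normal distribution. Counts near 0, as for C3 and Cfb, do not, so this rate does not hold for them. C3 stood at 2.42 CPM in P11 mutant replicate 4, with the other 3 at 0, and at 5.15 CPM in P29 control replicate 3, with the others at 0 to 0.712 CPM. Cfb stood at 3.17 CPM in P11 control replicate 4, with the others at 0. C1qa stood at 16.8 CPM in 3M control replicate 1, with the others at 8.06 to 8.26 CPM. Cd59a was high in P29 mutant replicate 4, at 55.9 CPM against 44.6 to 45.9 CPM, and low in 3M control replicate 1, at 42.4 CPM against 50.9 to 52.0 CPM. Serping1 stood at 56.0 CPM in P11 mutant replicate 3, with the others at 39.9 to 42.4 CPM.

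The genotype effect on 2 other complement genes differed between ages in a test of the difference itself. For Cd93 the effect at 3M minus that at P11 was 2.39 on the log2 scale (SE 0.65, edgeR adjusted p = 0.0235), and leaving out any of 6 libraries lost the call (adjusted p up to 0.100). Its 3M counts were low, at 14, 0, 11 and 10 in mutants against 11, 0, 5 and 3 in controls, so the 3M side is uncertain. For Vtn the difference was 0.79 (SE 0.21, adjusted p = 0.0202), lost on leaving out any of 4 libraries and in a fit to only the groups compared (0.77, adjusted p = 0.0707).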

How the results depend on the processing

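Of the 6 tested members (C1qa, C1qb, C1qc, C4b, Cd59a and Serping1), the number called for genotype at P11 was 1 by DESeq2 and 0 to 2 on leaving out a library, and at 3M it was 1 in a fit to only the groups compared. For the difference of the genotype effect it ran from 0 to 1 on leaving out a library, both for P29 minus P11 and for 3M minus P11. The number of all genes called stayed within 1.5 times its value in 164 of 164 reruns. Of 885 reruns of single genes, over a chosen set of genes and comparisons, 841 kept direction and side of the threshold. Another 12 gained a call, 20 lost one and 12 changed sign. The 841 include values that passed neither in the main fit nor in the rerun, so they do not measure how stable the calls are. Signs changed for values that had not passed the test. C1qc at P29 against P11 in mutants was -0.036 with median-of-ratios size factors and by DESeq2, and -0.025 to 0.11 on leaving out a library. Leaving out a library also gave, for mutant against control, -0.34 to 0.12 for C1qb at 3M, -0.25 to 0.088 for C1qb at P11, -0.17 to 0.026 for C1qc at P29 and -0.0019 to 0.22 for Cd59a at P29, and, for the C4b genotype effect at 3M minus P29, -0.21 to 0.94. The cause was not tested.

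Groups share replicate numbers, but same-numbered mutants and controls did not deviate together: r was 0.00052 to 0.0281 at P11, -0.0201 to 0.0042 at P29 and -0.0131 to 0.0468 at 3M. With the replicate number as a block, 833 genes were called for genotype at P11, 344 at P29 and 319 at 3M, against 853, 350 and 321 without it, and 0 of the 6 tested members were called at each age. Depth limits C3, Cfb and C4b most, since 12, 17 and 4 libraries held under 3 counts of them.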
